A study of Mus musculus with 14 samples.

Results

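The response of wild-type tissue 120 min after ionizing radiation was read on 5 of the 14 one-colour Affymetrix arrays of the series. All 14 carried total RNA labelled as mouse lymph node. The compared groups were 2 arrays of Atm+/+ (WT) tissue taken 120 min after radiation, replicates A and B, and 3 arrays of untreated WT tissue, replicates A, B and C. The other 9 arrays held WT tissue at 30 min after radiation (2 arrays) and Atm-/- (KO) tissue that was untreated (3 arrays), at 30 min (2 arrays) or at 120 min (2 arrays). They entered the same model and shared in the normalization, the filter and the estimate of spread behind each standard error and adjusted p. Their own values are used below to place the genes of the 120 min response. No radiation dose, mouse age, strain or number of animals per RNA stands in the labels. Since the labels do not tie replicates to separate animals, a p-value reflects only how much these arrays vary, which may be technical.

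ATM is the kinase that DNA double-strand breaks activate, and from it 2 branches of transcription are known to start. In one, ATM acts with NEMO in the nucleus, the IkB kinase is then activated in the cytoplasm, IkB proteins are degraded and NF-kB moves to the nucleus, where it induces chemokines, survival genes and its own inhibitors. In the other, ATM stabilizes p53, which induces genes that arrest the cell cycle or start apoptosis. Resting lymphocytes are known for their sensitivity to radiation.

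Over 8938 tested probe sets, 45 changed in WT at 120 min at an adjusted p under 0.05, which is 0.503% of those tested. Of these, 41 rose (0.459%) and 4 fell (0.0448%), and they named 37 risen and 3 fallen genes. The risen genes included chemokines (Cxcl1, Cxcl2, Cx3cl1), inhibitors and subunits of NF-kB (Nfkbia, Tnfaip3, Bcl3, Relb), surface molecules of inflammation (Icam1, Cd14) and the p53 target Cdkn1a. The fallen genes were Cd22 and H2-Ob, both known from B cells, and Atp5mpl. The rises ran from 0.88 to 4.04 on the log2 scale, 34 of them above 1 and 10 above 2, whereas the median change of all tested probe sets was -0.005. For 1085 probe sets (12.1% of those tested) both irradiated arrays lay above all 3 untreated ones, and for 1358 (15.2%) both lay below, so that separation of the arrays alone was common; it held for all 45 called probe sets. An unadjusted p under 0.05 was found for 771 probe sets, 412 with a change above 0 and 359 with one below.

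Every change is a difference of mean log2(value + 32), after quantile normalization, between 2 irradiated and 3 untreated arrays. It can therefore differ from what the deposited intensities printed beside it would give. It is given ± its standard error from limma, with the p adjusted over the 8938 probe sets. The added 32 understates changes of genes with low values. Intensities are those deposited, and since probe sets differ in how strongly they bind, the intensity of one gene is not compared with that of another. A gene is said to rise or fall only where its probe set passed. Counts of list members below stand against the shares of all tested probe sets given above. The lists and their members were chosen with earlier results of these data known. A count above such a share is therefore no test of a list.

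**Figure D1:**
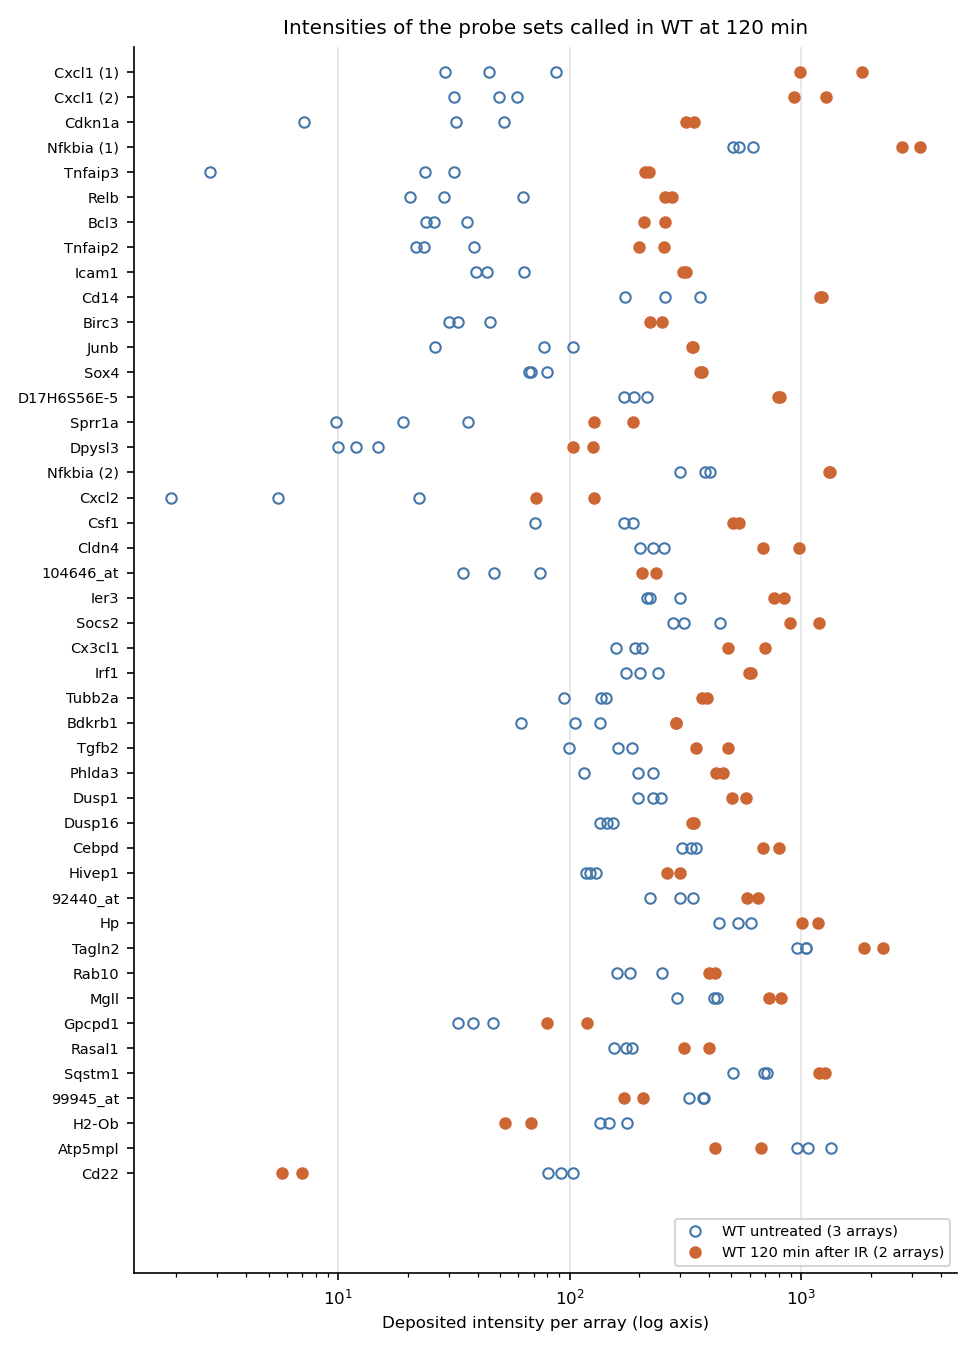
Deposited intensity (log axis) of the 45 called probe sets on each WT array, untreated as open blue circles and 120 min after radiation as filled orange circles, ordered by the size of the change; (1) and (2) mark the pairs of probe sets of Cxcl1 and Nfkbia. In all 45 rows the 2 irradiated arrays lie outside the range of the 3 untreated ones, from Cxcl1 at the top to Cd22, at 7 and 5.7 on the irradiated arrays, at the bottom.

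**Figure D2:**
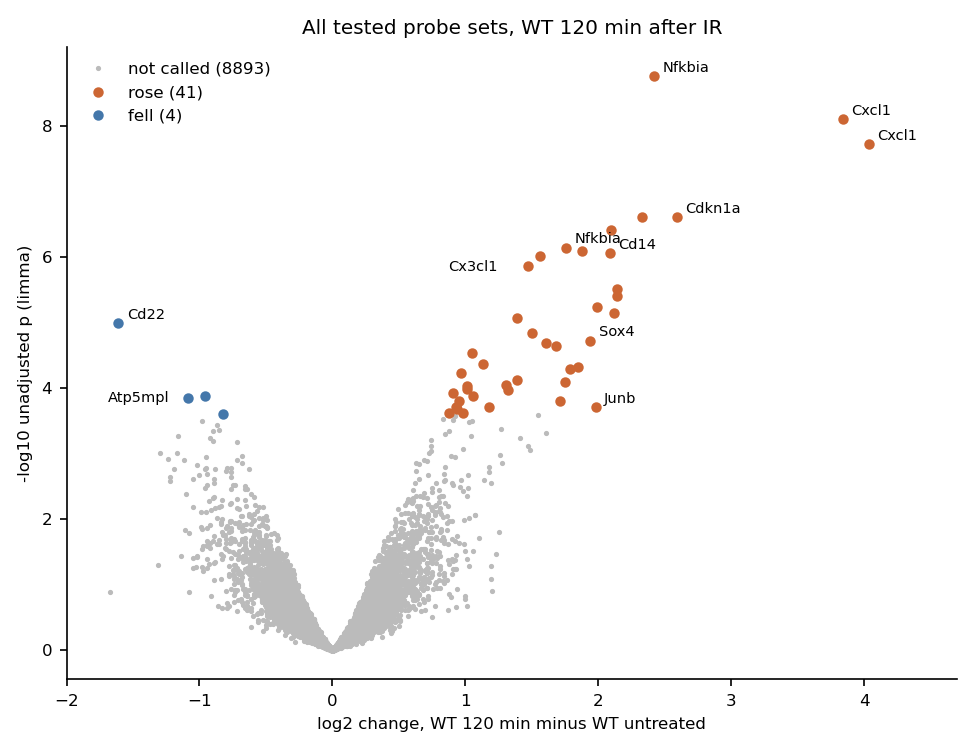
Change at 120 min (x axis, log2) against -log10 of the unadjusted limma p (y axis) for the 8938 tested probe sets, with risen ones in orange, fallen ones in blue and the 8893 not called in grey. The 41 rises reach 4.04, whereas the deepest of the 4 falls, Cd22, is at -1.61.

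The tissue label was checked against marker genes. Summed over 16 B cell markers, the untreated arrays gave intensities of 2714, 3416 and 2996, and summed over 17 T cell markers they gave 1474, 1594 and 1459. The median B cell marker read 128, 145 and 115 and the median T cell marker 73, 76.4 and 80. The medians of these arrays over all probe sets were 72.4, 72.4 and 66.8. No detection call was used. Genes of the salivary gland, a tissue the label does not name, gave sums over 10 genes of 69260, 74956 and 68628 on the untreated arrays and 80610 and 69040 on the irradiated ones. Their median on the untreated arrays was 7.27e+03, 7.93e+03 and 7.19e+03, far above the array medians. Which cells carried the changes described here was not measured. Array quality differed little in median intensity (61 to 72.4), while Gapdh, read at both ends of its transcript, had a 3' to 5' ratio of 0.891 and 0.723 on the irradiated arrays and of 0.958, 0.902 and 1.01 on the untreated ones. The same ratio of beta-actin overlapped, at 1.41 and 1.33 against 1.44, 1.36 and 1.58. The part of these ratios in the results was not tested.

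Promoters of the risen genes were read from RefSeq (mouse build GRCm38.p6) as windows of 250 bases before and 50 bases after the start of transcription; 28 of the 37 risen genes and 2 of the 3 fallen genes were matched. Motifs were searched on both strands: the NF-kB consensus, the p53 decamer, the CArG box, AP-1 (TGANTCA) and CRE (TGACGTCA), none of which overlaps another in the sequences shown. The NF-kB consensus occurred in 12 of the 32 windows of risen genes (37.5%), against 10.5% of 6743 windows of all genes tested and 8.46% of all 32851 windows. The 12 genes were Cxcl1, Cxcl2, Csf1, Nfkbia, Tnfaip3, Tnfaip2, Bcl3, Ier3, Irf1, Hivep1, Tagln2 and Sqstm1, with the match of Bcl3 lying after the start. AP-1 matches were found in 3 windows (9.38%, against 5.93% of the windows of tested genes and 7.81% of all), those of Tnfaip3, Sprr1a and Cldn4, and CRE matches in 2 (6.25%, against 2.64% and 1.79%), those of Dusp1 and Tubb2a. The p53 decamer occurred in 1 window (3.12%, against 6.69% and 8.36%), that of Cdkn1a, and the CArG box in 0 (against 1.56% and 1.63%). These matches describe letters in short windows, not binding, and no test was made of them.

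The windows before the start are shown for 6 of the genes with matches, 5 with NF-kB matches and Cdkn1a. Each runs 5′ to 3′ on the strand of the gene, in lower case with motif matches in capitals. They lie at chr5:90890995-90891244 (plus strand) for Cxcl1, chr5:90903649-90903898 (plus strand) for Cxcl2, chr12:55492648-55492897 (minus strand) for Nfkbia, chr10:19015411-19015660 (minus strand) for Tnfaip3, chr11:53769764-53770013 (plus strand) for Irf1 and chr17:29090729-29090978 (plus strand) for Cdkn1a. The capitals mark NF-kB matches in Cxcl1, Cxcl2, Nfkbia and Irf1 (in Cxcl1 and Cxcl2, overlapping matches on both strands), an AP-1 match followed by 2 NF-kB matches in Tnfaip3, and 2 p53 decamers in Cdkn1a.
Cxcl1: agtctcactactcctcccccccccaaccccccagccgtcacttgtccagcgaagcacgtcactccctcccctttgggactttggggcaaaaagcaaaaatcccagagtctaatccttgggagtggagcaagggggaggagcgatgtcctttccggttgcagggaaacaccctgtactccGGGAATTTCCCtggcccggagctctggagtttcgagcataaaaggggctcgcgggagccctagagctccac
Cxcl2: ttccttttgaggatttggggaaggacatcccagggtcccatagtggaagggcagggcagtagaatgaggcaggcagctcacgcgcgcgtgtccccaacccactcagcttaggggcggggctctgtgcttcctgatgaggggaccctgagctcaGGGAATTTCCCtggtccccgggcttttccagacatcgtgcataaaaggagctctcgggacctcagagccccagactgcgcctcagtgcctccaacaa
Nfkbia: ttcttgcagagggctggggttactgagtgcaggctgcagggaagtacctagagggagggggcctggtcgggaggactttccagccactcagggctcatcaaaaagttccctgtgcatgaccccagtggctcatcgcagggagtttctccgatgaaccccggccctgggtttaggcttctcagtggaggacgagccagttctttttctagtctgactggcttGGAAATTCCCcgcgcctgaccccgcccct
Tnfaip3: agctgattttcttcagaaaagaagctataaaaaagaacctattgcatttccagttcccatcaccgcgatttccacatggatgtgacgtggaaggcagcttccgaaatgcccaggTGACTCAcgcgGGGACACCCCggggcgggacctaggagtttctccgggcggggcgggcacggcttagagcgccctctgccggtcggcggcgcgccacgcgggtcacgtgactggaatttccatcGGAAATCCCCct
Irf1: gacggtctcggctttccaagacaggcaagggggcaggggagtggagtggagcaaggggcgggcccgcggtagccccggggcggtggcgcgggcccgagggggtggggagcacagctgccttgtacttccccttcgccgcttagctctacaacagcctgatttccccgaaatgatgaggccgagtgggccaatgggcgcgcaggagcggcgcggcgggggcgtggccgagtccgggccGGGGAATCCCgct
Cdkn1a: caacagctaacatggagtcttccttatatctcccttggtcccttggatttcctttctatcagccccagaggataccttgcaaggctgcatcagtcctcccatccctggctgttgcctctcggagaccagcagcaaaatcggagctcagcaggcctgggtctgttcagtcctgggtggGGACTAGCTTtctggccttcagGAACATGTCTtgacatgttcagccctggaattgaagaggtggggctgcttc

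Cxcl1 and Cxcl2, which both rose, carried the same 10 letters, GGGAATTTCC, 71 to 62 and 97 to 88 bases before the start. The match of Nfkbia, GGAAATTCCC, lay 29 to 20 bases before the start. Tnfaip3 had GGGACACCCC at 125 to 116 and GGAAATCCCC at 12 to 3 bases before it. In Cdkn1a the decamers GGACTAGCTT and GAACATGTCT lay 73 to 64 and 51 to 42 bases before the start shown. RefSeq gives Cdkn1a, Tnfaip3 and Irf1 another start each, and the 250 bases before those starts held no match to any of the 5 motifs. Risen genes without any match in the 250 bases before the start included Icam1, Birc3, Cx3cl1, Junb and Sox4.

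Genes that restrain or carry NF-kB signalling are given first. Of 10 tested members of the NF-kB and IkB family, 3 rose (Nfkbia, Relb and Bcl3), against 0.459% of all tested probe sets, and 7 did not pass. The median change of the family was 0.69, with all 10 above 0. Nfkbia, the inhibitor IkB-alpha that holds NF-kB in the cytoplasm and is itself an NF-kB target, read 536.8, 622 and 505.7 on the untreated arrays and 3247.3 and 2735.8 at 120 min. Both irradiated arrays stood far above the untreated ones, and it rose by 2.42 ± 0.16 (adjusted p = 1.54e-05). Its other probe set, at 404, 383.7 and 300 untreated and 1331.2 and 1325.3 at 120 min, rose by 1.76 ± 0.19 (adjusted p = 0.000865). Tnfaip3 encodes A20, a ubiquitin-editing enzyme that shuts off signalling upstream of the IkB kinase. It was near the floor of the scale without treatment, at 23.6, 2.8 and 31.7, and reached 210.7 and 220.2, a rise of 2.33 ± 0.23 (adjusted p = 0.00044). Relb, a subunit of the non-canonical NF-kB pathway, went from 62.6, 20.5 and 28.7 to 277.4 and 257.4 and rose by 2.14 ± 0.28 (adjusted p = 0.00271). Bcl3, a nuclear IkB protein that works with the NF-kB subunits p50 and p52, went from 36, 26 and 24 to 210.4 and 258 and rose by 2.14 ± 0.27 (adjusted p = 0.00225). In Tnfaip3, Relb and Bcl3 the untreated arrays all lay below their array's median intensity, and in none of these genes did the groups overlap. Of the members that did not pass, Nfkbiz was at 0.78 ± 0.24, Rela at 0.75 ± 0.23 and Nfkb2 at 0.64 ± 0.28 (adjusted p = 0.317, 0.345 and 0.555), with no overlap between the groups. Without WT 120 min A or B the adjusted p of Relb was up to 0.0525, and without WT 120 min B that of Bcl3 was 0.0605.

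Among 11 tested genes of NF-kB feedback and cell survival, 4 rose, against 0.459% of all tested probe sets, and 7 did not pass. The list had a median of 0.38 and no change below 0. Besides Tnfaip3 the risen members were Tnfaip2, Birc3 and Ier3. Tnfaip2, first known as a gene induced by tumour necrosis factor, read 38.6, 23.5 and 21.7 without treatment and 255.3 and 200.2 at 120 min, a rise of 2.12 ± 0.29 (adjusted p = 0.00421). Birc3, the ubiquitin ligase cIAP2 that protects cells from death signalled by the TNF receptor, went from 45.2, 30 and 32.8 to 222.2 and 250.6, a rise of 1.99 ± 0.27 (adjusted p = 0.00366). Ier3, an early stress gene that modulates survival, went from 221.3, 215.4 and 299.1 to 840.5 and 766.9, a rise of 1.56 ± 0.18 (adjusted p = 0.000865). None of these groups overlapped. A pair of weaker rises belonged to genes that touch the same pathway. Hivep1, a zinc finger protein that binds enhancer sequences like those of NF-kB, went from 130.2, 117.1 and 122.3 to 299.7 and 263.3 (1.01 ± 0.18, adjusted p = 0.0275). Sqstm1, the autophagy receptor p62 and a scaffold of TRAF6 signalling, went from 507.7, 713.1 and 691.9 to 1264.5 and 1198.6 (0.88 ± 0.17, adjusted p = 0.0489). Without WT 120 min A the adjusted p of Tnfaip2 was 0.0877 and without WT 120 min B that of Birc3 was 0.0847. The calls of Hivep1 and Sqstm1 ended without any single one of the 5 arrays (adjusted p up to 0.291 and 0.426) and in 2 and 5 of 11 other settings.

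Secreted ligands came next, led by chemokines. Of 24 chemokines and inflammatory cytokines on the array, 12 passed the filter on low values. Of these, 4 rose, against 0.459% of all tested probe sets, and 8 did not pass. The median change of the 12 was 0.26. Cxcl1, a chemokine that attracts neutrophils, had the largest rise of all. One probe set read 87.7, 45 and 28.8 without treatment and 987.3 and 1828.6 at 120 min, a rise of 4.04 ± 0.32 (adjusted p = 5.69e-05) or 16.5-fold on this scale. The other read 31.5, 59.1 and 49.3 against 931.3 and 1274.8, a rise of 3.84 ± 0.29 (adjusted p = 3.55e-05). Its neighbour Cxcl2, a chemokine of the same receptor, was close to the floor without treatment, at 22.4, 5.5 and 1.9, and reached 71.8 and 127.9 at 120 min (1.75 ± 0.31, adjusted p = 0.0259). Cx3cl1, fractalkine, a chemokine that also serves as an adhesion molecule on the cell surface, went from 158.1, 205 and 191.2 to 699.1 and 483.3 (1.47 ± 0.17, adjusted p = 0.00113). In each of these genes the lower irradiated array was above the highest untreated one.

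Csf1, the growth factor of macrophages, read 187.9, 70.9 and 171.8 without treatment and 541.2 and 506.9 at 120 min, a rise of 1.71 ± 0.32 (adjusted p = 0.0367). Tgfb2, a ligand of the TGF-beta family, read 185, 99.7 and 162.5 and then 349.9 and 481.3, a rise of 1.31 ± 0.23 (adjusted p = 0.0274). The untreated arrays of both genes differed among themselves, with untreated B the lowest. Haptoglobin (Hp), an acute-phase protein that binds free haemoglobin, went from 442.3, 532.1 and 610.1 to 1009.8 and 1180.2 (0.98 ± 0.19, adjusted p = 0.0489). Of the ligands that did not pass, Ltb, the lymphotoxin that lymphocytes make, was at -0.76 ± 0.21 (adjusted p = 0.232), from 446.9, 425.5 and 453.8 to 281.6 and 224.1. Interleukin-6, Ccl2 and Csf2 were among 7 ligands below 32 on all 5 arrays. The adjusted p rose to 0.38 for Cxcl2 without untreated B or C or either irradiated array, to 0.319 for Csf1 and 0.426 for Tgfb2 without untreated B or either irradiated array, and to 0.62 for Hp without any single one of the 5 arrays. A fit on the 5 arrays alone ended the calls of Cxcl2, Cx3cl1, Csf1, Tgfb2 and Hp.

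Surface receptors, adhesion molecules and junction proteins contributed 4 risen genes. Icam1, the ligand by which integrins of leukocytes hold on to endothelium, read 39.3, 63.2 and 44.1 without treatment and 317.5 and 308.8 at 120 min, a rise of 2.10 ± 0.22 (adjusted p = 0.000569). It was the only one of 8 tested vessel adhesion molecules to rise; the median of the list was -0.13, and Sele and Selp were below 32 on all 5 arrays. Cd14, the co-receptor for lipopolysaccharide, went from 174, 366.2 and 258.4 to 1208.9 and 1232.2, a rise of 2.09 ± 0.24 (adjusted p = 0.000865). Cd14 is best known from monocytes. Of 13 tested macrophage and monocyte markers 0 passed, with a median change of -0.02, and the summed intensities of the 15 on the array were 4976, 4932 and 5016 without treatment and 5144 and 5089 at 120 min. Which cells carried the Cd14 rise was not tested. Bdkrb1, the bradykinin receptor that inflammation induces, read 61.6, 105.7 and 135.1 and then 288.5 and 288.9 (1.32 ± 0.24, adjusted p = 0.0303). Untreated KO arrays read 213.3, 216.4 and 190.5 for Bdkrb1, above all untreated WT arrays. Cldn4, a tight junction protein of epithelia, read 254.5, 200.6 and 229.8 and then 981 and 683.7 (1.68 ± 0.26, adjusted p = 0.00954). The groups did not overlap for any of the 4, and the 2 irradiated arrays differed most for Cldn4. The Bdkrb1 call ended without untreated A, untreated B or either irradiated array (adjusted p up to 0.31) and that of Cldn4 without untreated B or either irradiated array (up to 0.187). A fit on the 5 arrays alone ended the calls of Cd14 and Bdkrb1.

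On the p53 branch, 2 of 20 tested target genes rose, against 0.459% of all tested probe sets, and 18 did not pass. The median change of the 20 was 0.39, with 17 of 20 above 0. Cdkn1a, the cyclin-dependent kinase inhibitor p21 that arrests the cell cycle, went from 52, 32.3 and 7.1 to 342.9 and 318.1, a rise of 2.59 ± 0.26 (adjusted p = 0.00044). Its other probe set read 99.9, 48.8 and 44.1 and then 136 and 175.4, without overlap, and did not pass (1.02 ± 0.28, adjusted p = 0.23). Phlda3, a p53 target that restrains Akt, read 229.7, 115.6 and 197.3 and then 457.4 and 428.7, a rise of 1.18 ± 0.23 (adjusted p = 0.0429). Of the targets that did not pass, Btg2, an antiproliferative gene, was at 1.14 ± 0.30 and Mdm2, the ubiquitin ligase that degrades p53, at 1.07 ± 0.34 (adjusted p = 0.198 and 0.365). Plk2 was at 0.74 ± 0.17 and Ccng1 at 0.70 ± 0.23 (adjusted p = 0.115 and 0.37). All 4 had both irradiated arrays above the untreated ones, as had 12.1% of all tested probe sets. The genes of DNA break signalling and repair stood at the background, with 0 of 16 passing and a median of -0.0025. Cdkn1a passed without each of the 5 arrays, whereas the call of Phlda3 ended without untreated B, untreated C or either irradiated array (adjusted p up to 0.351) and in 5 of 11 other settings.

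**Figure D3:**
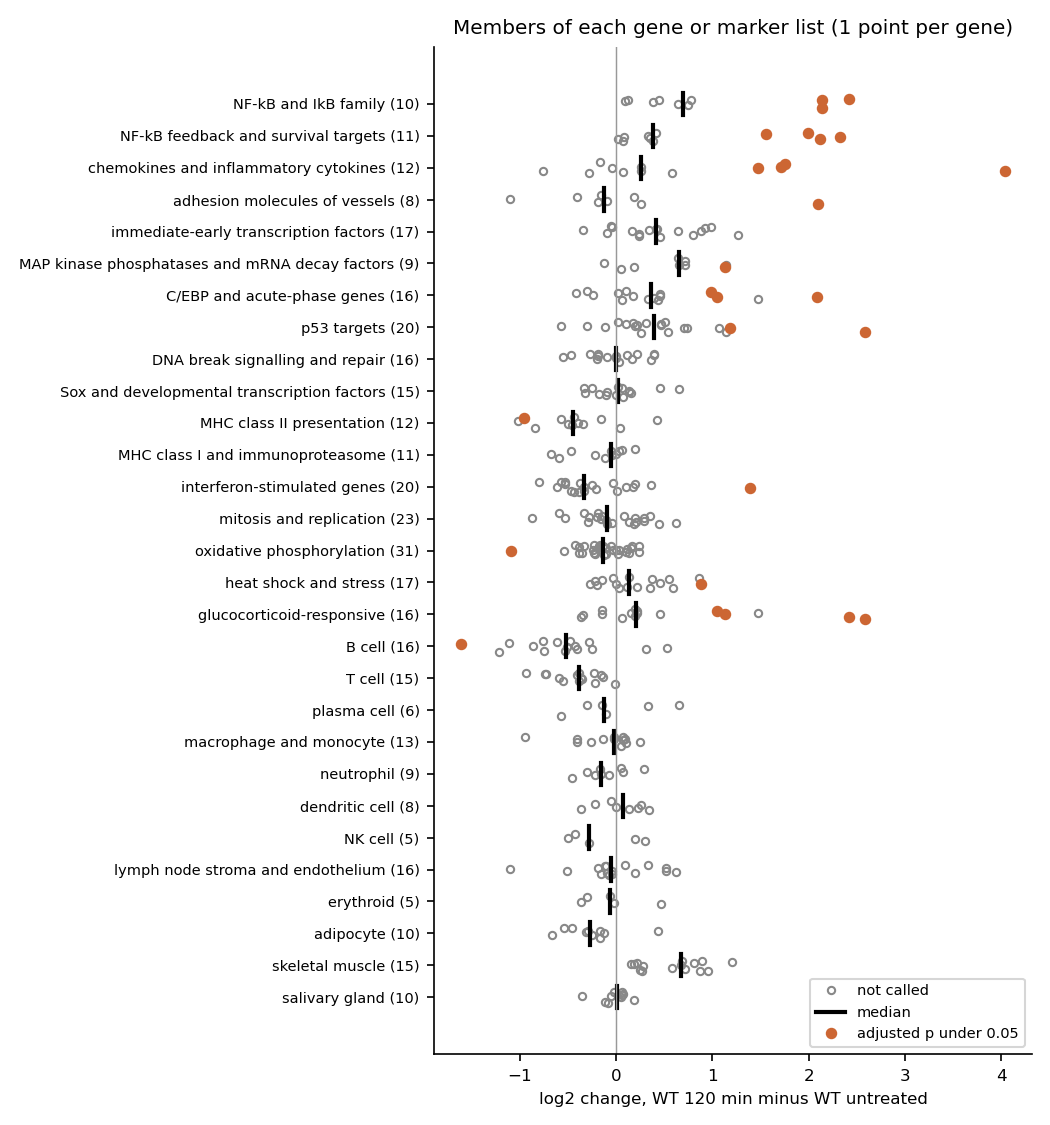
Change in WT at 120 min (log2) of every tested member of 29 gene and marker lists, 1 point per gene, with called members filled in orange, the others open, and a bar at the median; the number tested is in brackets. Cxcl1, at 4.04 in the chemokine list, stands farthest to the right, the NF-kB and IkB family has a median of 0.69, and the B cell and T cell lists have medians of -0.52 and -0.39.

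Transcription factors outside the NF-kB family included Sox4, Irf1, Junb and Cebpd. Sox4, a factor of lymphoid and epithelial progenitors, read 79.5, 68.1 and 66.9 without treatment and 374.1 and 364.8 at 120 min, a rise of 1.94 ± 0.29 (adjusted p = 0.00889). A brighter probe set of Sox4 read 132.6, 137.5 and 139 and then 218.5 and 243.3, which did not pass (0.65 ± 0.20, adjusted p = 0.339), so the probe sets differ in size. Irf1, a factor that drives interferon-responsive genes, went from 241.2, 201 and 175.2 to 594.5 and 609.8 (1.39 ± 0.19, adjusted p = 0.00484). It was the only riser among 20 tested interferon-stimulated genes, whose median was -0.33 with 14 of 20 below 0. Junb, an AP-1 subunit, read 26.3, 103.2 and 77.2 and then 336.1 and 340.1 (1.98 ± 0.38, adjusted p = 0.0429), while its other probe set, at 197.3, 126.3 and 111.3 and then 456.4 and 340.9, did not pass (1.27 ± 0.27, adjusted p = 0.0688). No other immediate-early factor passed: the list had 17 tested members, a median of 0.41, and Klf6 at 0.98 ± 0.22 and Klf10 at 0.92 ± 0.22 (adjusted p = 0.109 and 0.129). Cebpd, a C/EBP factor of the acute-phase response, went from 334.4, 351.7 and 305.3 to 684 and 798.2 (1.05 ± 0.17, adjusted p = 0.0117). The adjusted p rose to 0.13 for Sox4 and 0.11 for Irf1 without either irradiated array, to 0.38 for Junb without untreated A, untreated C or either irradiated array, and to 0.266 for Cebpd without WT 120 min B. A fit on the 5 arrays alone ended the calls of Irf1, Junb and Cebpd.

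Brakes on kinase and cytokine signalling also rose. Dusp1, a phosphatase that inactivates MAP kinases, read 227.9, 198.2 and 246.9 without treatment and 504.6 and 575.3 at 120 min, a rise of 1.13 ± 0.18 (adjusted p = 0.017). Dusp16, a phosphatase of the same family that acts on JNK, read 154.6, 134.7 and 144.8 and then 343.8 and 337.3 (1.06 ± 0.20, adjusted p = 0.0341). Dusp1 was the only riser among 9 tested MAP kinase phosphatases and mRNA decay factors. Btg2, on the same list, was at 1.14 and Dusp6 and Btg1 were each at 0.71, and none of these passed. In 6 of 9 both irradiated arrays lay above the untreated ones, against 12.1% of all tested probe sets. Dusp16 was not on that list. Socs2, a suppressor of growth hormone and cytokine signalling through STAT proteins, went from 447, 278.7 and 311.2 to 1199.6 and 895.8 (1.50 ± 0.22, adjusted p = 0.00715). Rasal1, which promotes hydrolysis of GTP by Ras, went from 155.4, 185.9 and 175 to 312 and 399.5 (0.91 ± 0.17, adjusted p = 0.0322). Irradiated and untreated arrays were apart for all 4 genes. The calls of Dusp16 and Rasal1 ended without any single one of the 5 arrays (adjusted p up to 0.319 and 0.539), that of Dusp1 without untreated B or either irradiated array (up to 0.306) and that of Socs2 without either irradiated array (up to 0.146). A fit on the 5 arrays alone ended all 4 calls.

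The other risen genes serve the cytoskeleton, epithelial structure, vesicle traffic and lipid metabolism. Sprr1a, a protein of the cornified envelope of stressed epithelia, went from 36.5, 19.1 and 9.8 to 187 and 127.7 (1.85 ± 0.31, adjusted p = 0.018). Dpysl3, a protein of the collapsin response family that regulates the cytoskeleton, went from 11.9, 10 and 14.9 to 126.1 and 103 (1.79 ± 0.30, adjusted p = 0.0182). Both started from the floor of the scale. Tubb2a, a beta-tubulin, went from 137.2, 143.2 and 94.5 to 372.4 and 391 (1.39 ± 0.24, adjusted p = 0.0247), by a probe set whose suffix marks it as shared among similar transcripts. Called probe sets of Cd22 (s), Junb (i), Gpcpd1 (r) and Cxcl1 (g, the one at 4.04) also carried a suffix letter. How far they are specific to their gene was not examined. Tagln2, an actin-binding protein, went from 957.7, 1046.5 and 1051.4 to 2250.5 and 1865.7 (0.97 ± 0.16, adjusted p = 0.0205). Its arrays were apart by more than the spread within either group. Rab10, a GTPase of vesicle traffic, went from 181.6, 160.6 and 250.2 to 424.6 and 398.2 (0.95 ± 0.18, adjusted p = 0.0367). Mgll, the lipase that cleaves monoacylglycerol, went from 421.4, 290.2 and 430.9 to 821.9 and 724.6 (0.94 ± 0.18, adjusted p = 0.045). Gpcpd1, a phosphodiesterase of glycerophosphocholine, went from 46.7, 32.8 and 38.4 to 79.9 and 119.2 (0.93 ± 0.18, adjusted p = 0.0429). None of these groups overlapped.

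D17H6S56E-5, named here as the annotation gives it, had values close together within each group, at 215.9, 170.8 and 189.3 without treatment and 798 and 813.7 at 120 min, a rise of 1.88 ± 0.21 (adjusted p = 0.000865). It passed without each of the 5 arrays. The 2 risen probe sets without a gene name read 74.4, 47.2 and 34.6 and then 236.6 and 205.3 (104646_at, 1.61 ± 0.24, adjusted p = 0.00902), and 223.4, 299.1 and 341.2 and then 648.6 and 585.9 (92440_at, 1.01 ± 0.18, adjusted p = 0.0293). Other probe sets of these genes went different ways: that of Mgll lay below the untreated arrays on both irradiated ones (-0.56 ± 0.32, adjusted p = 0.679), and those of Rab10, Gpcpd1, Tubb2a and Cx3cl1 overlapped, at 0.059, -0.092, -0.41 and 0.24. In all, 11 called genes had 11 further probe sets, of which 8 were tested, 5 of those had a change above 0 and none passed. Leaving out any single one of the 5 arrays ended the calls of Tubb2a, Tagln2, Mgll and Gpcpd1 (adjusted p up to 0.31, 0.245, 0.343 and 0.607). For Sprr1a (untreated B, untreated C or either irradiated array) and for Dpysl3, Rab10 and 92440_at (untreated A, untreated B or either irradiated array) the adjusted p rose to 0.271, 0.245, 0.319 and 0.271, and for 104646_at (either irradiated array) to 0.153. A fit on the 5 arrays alone ended the calls of Tubb2a, Tagln2, Rab10, Mgll, Gpcpd1 and both unnamed probe sets.

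The 4 falls ran from -0.82 to -1.61. Cd22, an inhibitory receptor of B cells, read 103, 80.6 and 91.4 without treatment and 7 and 5.7 at 120 min, a change of -1.61 ± 0.23 (adjusted p = 0.00535). H2-Ob, a chain of the H2-O molecule that modulates peptide loading on MHC class II in B cells, went from 148.1, 176.2 and 135.7 to 67.8 and 52.3 (-0.96 ± 0.18, adjusted p = 0.0341). Atp5mpl, a small protein of the mitochondrial ATP synthase, went from 959.9, 1073.5 and 1345.2 to 670.2 and 425.8 (-1.09 ± 0.20, adjusted p = 0.0348). It was the only one of 31 tested oxidative phosphorylation genes to pass, and their median was -0.14. The fourth probe set, 99945_at, has no gene name and went from 327, 376.7 and 381 to 171.5 and 207.5 (-0.82 ± 0.16, adjusted p = 0.0489). Both irradiated arrays lay below the untreated ones for all 4. No fall passed without each of the 5 arrays: the Cd22 call ended without either irradiated array (adjusted p up to 0.12), and the calls of H2-Ob, Atp5mpl and 99945_at ended without any one array (up to 0.564, 0.571 and 0.443). A floor at 32 in place of the added 32 ended the call of Cd22, and a fit on the 5 arrays alone those of the other 3.

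Cd22 belongs to a list of B cell markers of which 1 of 16 tested fell and 15 did not pass, against 0.0448% of all probe sets that fell; in bulk RNA, fewer cells of a type and less RNA per cell cannot be told apart. The median change of the list was -0.52, with 14 of 16 below 0. For 11 of 16 both irradiated arrays lay below all untreated ones, against 15.2% of all tested probe sets. The summed intensity of the list was 2714, 3416 and 2996 without treatment and 1880 and 1872 at 120 min. Fcer2a, the low-affinity IgE receptor, was at -1.22 ± 0.33, and Cd79b and Cd79a, the signalling chains of the B cell receptor, were at -1.12 ± 0.27 and -0.87 ± 0.28 (adjusted p = 0.199, 0.136 and 0.373). Cxcr5 and Spib were the 2 members above 0, at 0.53 and 0.31. Of 15 tested T cell markers none passed, yet all 15 were below 0, with a median of -0.39 and summed intensities of 1474, 1594 and 1459 against 1009 and 1016. Cd3e, a chain of the T cell receptor complex, was at -0.94 ± 0.36 (adjusted p = 0.492). The Gapdh ratio was lower on the same 2 arrays while that of beta-actin overlapped, and the part of RNA quality or of lymphocyte content in the falls was not tested.

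Of 12 tested genes of MHC class II presentation, H2-Ob fell and 11 did not pass, against 0.0448% of all tested probe sets that fell. The median of the 12 was -0.45. For 9 of 12 both irradiated arrays lay below the untreated ones, against 15.2% of all tested probe sets. H2-DMb1, a chain of the peptide exchange factor H2-DM, was at -1.02 ± 0.25 and H2-Oa, the partner of H2-Ob, at -0.84 ± 0.26 (adjusted p = 0.151 and 0.32). MHC class I and immunoproteasome genes had 0 of 11 passing and a median of -0.054, with the immunoproteasome subunits Psmb9 and Psmb8 at -0.68 ± 0.16 and -0.60 ± 0.20 (adjusted p = 0.127 and 0.389). The interferon-stimulated genes that were lowest were Ifit3 at -0.80 ± 0.31 and Ifi47 at -0.62 ± 0.27 (adjusted p = 0.496 and 0.555). None of these lists was tested as a whole.

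The remaining lists are given by count, to be set against 0.459% of all tested probe sets that rose and 0.0448% that fell. Of 16 C/EBP and acute-phase genes, Cd14, Cebpd and Hp rose and 13 did not pass (median 0.36), with Lcn2, the iron-binding lipocalin, at 1.47 ± 0.33 (adjusted p = 0.1). Of 16 glucocorticoid-responsive genes, 4 rose (median 0.21), and these were Nfkbia, Cdkn1a, Dusp1 and Cebpd, all of which also stand on another list above. Heat shock and stress genes had 1 riser of 17, Sqstm1 (median 0.13), with Ddit3, the stress-induced C/EBP protein CHOP, at 0.86 ± 0.29 (adjusted p = 0.405). Of 23 mitosis and replication genes none passed (median -0.098), with Cdk1 at -0.88 ± 0.39 and Cdc20 at -0.60 ± 0.24 (adjusted p = 0.558 and 0.533). Of 15 Sox and developmental factors none passed by its brightest probe set (median 0.017).

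Markers of other cells that the tissue could hold gave no call. Skeletal muscle markers were above 0 for all 15 tested (median 0.67), with summed intensities of 3660, 2599 and 1700 without treatment and 4474 and 4471 at 120 min, while in KO at 120 min their median change was -1.53; their part in the results was not tested. The largest was Atp2a1, the calcium pump of fast muscle, at 1.20 ± 0.73 (adjusted p = 0.702), whose groups overlapped. Adipocyte markers had a median of -0.27 over 10 genes, with Fabp4 at -0.67 ± 0.23 (adjusted p = 0.415). Medians were 0.012 for 10 salivary gland genes, -0.058 for 16 genes of lymph node stroma and endothelium, -0.13 for 6 plasma cell genes, -0.16 for 9 neutrophil genes, 0.064 for 8 dendritic cell genes, -0.28 for 5 NK cell genes and -0.065 for 5 erythroid genes. Ly6g, Ngp and Mmp8, which mark neutrophils, were below 32 on all 5 arrays, as was the NK cell receptor Ncr1. Glycam1, a mucin of the high endothelial venules of lymph nodes, was at -1.10 ± 0.31 (adjusted p = 0.265), from 489.4, 427.2 and 360.7 to 213.3 and 151.4.

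Beyond the called genes, the largest changes that did not pass are given as values, each with an unadjusted p under 0.01 and no overlap between groups. Upward these were Rab20, a GTPase of endosomes and phagosomes, at 1.61 ± 0.35, Traf4, a TRAF adaptor, at 1.49 ± 0.34, and Lcn2 (adjusted p = 0.0744, 0.11 and 0.1). They were followed by Pcgf2, a Polycomb group protein, at 1.28, Pvr, an adhesion receptor of the nectin family, at 1.26, Ifngr2, a chain of the interferon-gamma receptor, at 1.19, and Btg2 at 1.14. Tgif1, a homeobox repressor in TGF-beta signalling, was at 1.05 ± 0.21 with the smallest adjusted p of them, 0.0555. Map3k8, the kinase Tpl2 that NF-kB1 binds, was at 1.04 ± 0.23 (adjusted p = 0.078). Rtkn, Mdm2 and Inpp5a, at 1.07, 1.07 and 1.03, complete the 12.

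The 12 largest downward changes without a call were led by Igkv1-133, a variable segment of the immunoglobulin kappa chain. It went from 476.2, 483.5 and 434.9 to 155.3 and 181.3 (-1.30 ± 0.30, adjusted p = 0.12). The tetraspanin Cd53 was at -1.19 ± 0.30 and the lymphocyte surface peptide Cd52 at -1.16 ± 0.25 (adjusted p = 0.158 and 0.078). Fcer2a, Cd79b and Ms4a1, which encodes CD20, were at -1.22, -1.12 and -1.05, the last by a probe set other than its brightest, which was at -0.76. The rest were H2-DMb1, Glycam1, Rtl6 (-1.24), Serpinf1 (-1.22), the long noncoding RNA Tug1 (-1.17) and the junctophilin Jph3 (-1.05).

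The time course of the 41 risen probe sets was read from the WT arrays at 30 min, set against the same 3 untreated arrays. Because both comparisons share those arrays, the changes are given side by side and are not tested against each other in that form. The median change of the 41 was 1.61 at 120 min and 0.45 at 30 min. Their choice by the change at 120 min raises the first of these medians. At 30 min, 5 of them had passed, namely both probe sets of Cxcl1 (2.58 and 2.73), Nfkbia (1.50), Ier3 (2.35) and Dusp1 (2.21). Ier3 read 1469.3 and 1329.8 at 30 min and 840.5 and 766.9 at 120 min, and Dusp1 read 1211.2 and 1142 and then 504.6 and 575.3. These 2 genes were lower at the later time on both arrays, although the differences of -0.79 ± 0.19 and -1.08 ± 0.20 did not pass (adjusted p = 0.245 and 0.0755). Bdkrb1, at 226.2 and 247 at 30 min, and Junb, at 256.9 and 335.8, were close to their later values, with changes of 1.08 and 1.82 at 30 min.

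The WT arrays at 120 min behind the calls of risen genes also enter the comparison with WT at 30 min. Risen probe sets are therefore favoured in it. Against WT at 30 min directly, 9 probe sets of all those tested were higher at 120 min (0.101%) and 2 were lower (0.0224%). All 9 of the higher ones are among the risen genes. They were Relb (2.45 ± 0.30, adjusted p = 0.00753), Icam1 (2.03 ± 0.24, adjusted p = 0.00689), Tnfaip2 (2.08), Bcl3 (1.88), Cdkn1a (1.78), Cd14 (1.62), D17H6S56E-5 (1.43), Cx3cl1 (1.19) and Rasal1 (1.12), with an adjusted p of 0.0332 for the last 7. Relb read 26.6 and 16 at 30 min, Tnfaip2 31.2 and 23.4 and Icam1 53.5 and 46.4, values inside or just below the range of the untreated arrays. Cxcl1, Nfkbia and Tnfaip3 lay above the untreated arrays at 30 min already, and their later differences did not pass (1.46 and 1.11 for Cxcl1, 0.92 and 0.78 for Nfkbia, 1.37 for Tnfaip3). These calls rest on few arrays: without one of the 4 WT arrays at 30 and 120 min, 0 or 1 of them remained, the adjusted p of Relb and Icam1 reached 0.162 and those of the others 0.284 to 0.434. Bcl3 alone kept its call without WT 30 min A. A fit on only these groups called 0.

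**Figure D4:**
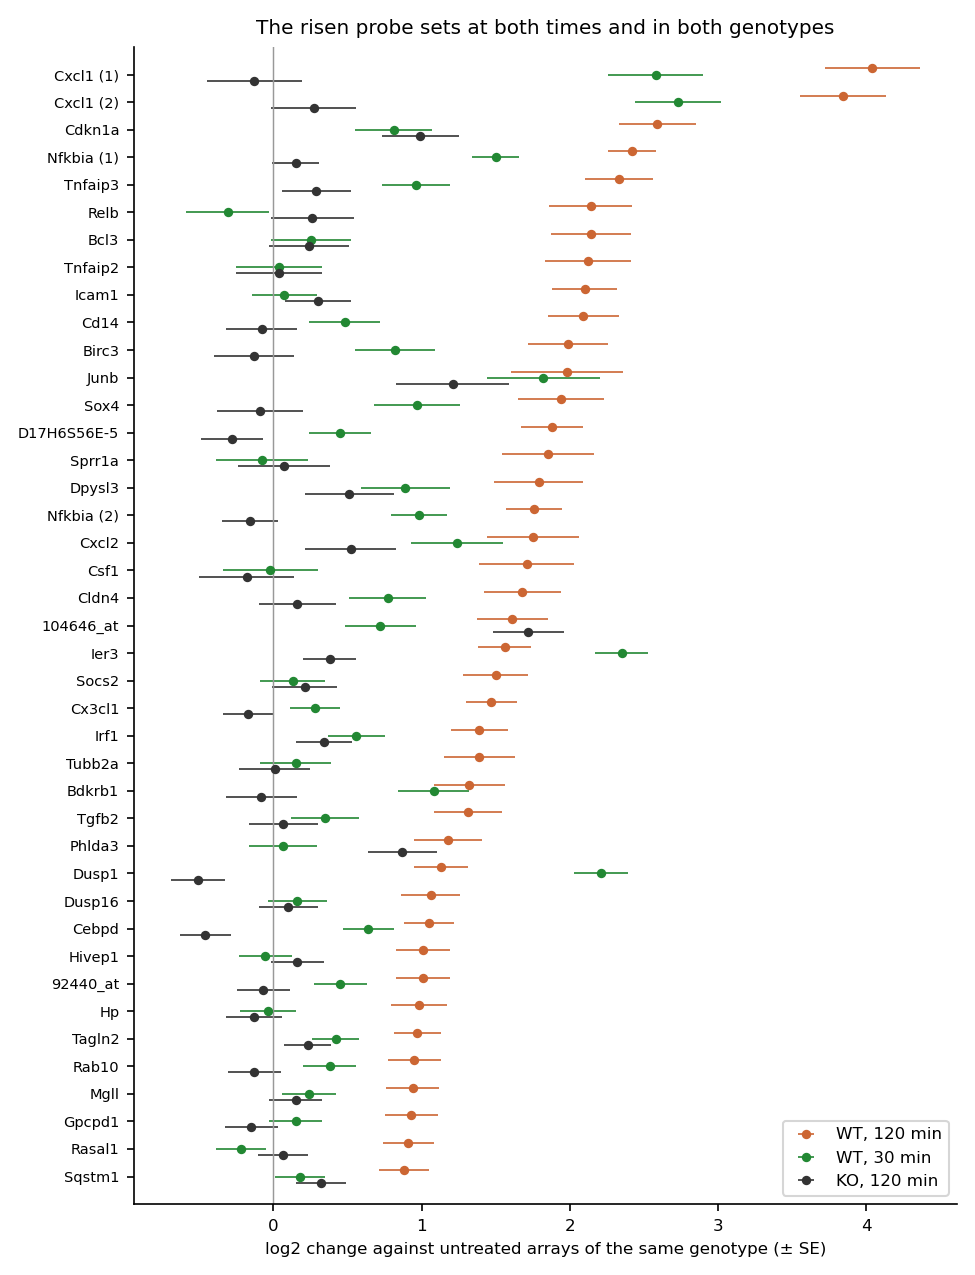
Change (log2, ± SE) of each of the 41 risen probe sets in WT at 120 min (orange), WT at 30 min (green) and KO at 120 min (black), each against the 3 untreated arrays of its genotype; the WT changes share their untreated arrays, and (1) and (2) mark probe sets of the same gene. Ier3 and Dusp1 are higher at 30 min, and the unnamed 104646_at is as high in KO (1.72) as in WT (1.61).

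The same 41 probe sets were then read in KO tissue at 120 min. The KO arrays do not enter the WT difference, but they shared the normalization, the filter and the estimate of spread behind the 41 calls; a fit on only the WT groups compared called 18 rises. In KO the median change of the 41 was 0.10, with 26 above 0 and a range from -0.51 to 1.72. The 41 were chosen by their rise in WT. That choice raises their WT changes and their WT minus KO differences, but not their KO changes. No probe set passed in KO at 120 min (0% of 8938 by limma, with 645 at an unadjusted p under 0.05). A test of the difference between the WT and KO responses called 12 probe sets with the larger response in WT (0.134%), of which 11, from 9 genes, are risen ones. The largest was that of Cxcl1, which read 72.2 and 40.7 in irradiated KO against 66.2, 82.6 and 46.2 in untreated KO by one probe set, a difference of 4.17 ± 0.46 (adjusted p = 0.00286), and 3.57 ± 0.40 by the other (adjusted p = 0.00286). Nfkbia, at 606.7 and 647.2 in irradiated KO, differed by 2.27 ± 0.22 (adjusted p = 0.00182) and by 1.92 for its other probe set (adjusted p = 0.02). Cd14, D17H6S56E-5, Tnfaip3, Icam1 and Cx3cl1 differed by 2.17, 2.16, 2.04, 1.81 and 1.65 (adjusted p = 0.0268, 0.0164, 0.0349, 0.0497 and 0.0243). Dusp1 and Cebpd had changes below 0 in KO, -0.51 and -0.46, and differed by 1.64 and 1.52 (adjusted p = 0.0339 and 0.0268). In 6 other settings of the processing, the Icam1 difference passed in 2, that of Tnfaip3 in 3 and that of Cd14 in 4. Those of Cx3cl1, Dusp1, Cebpd and the second Nfkbia probe set passed in 5 and ended with the replicate block. Both Cxcl1 probe sets, the brighter Nfkbia one and D17H6S56E-5 passed in all 6.

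The first 3 of these differences, for both Cxcl1 probe sets and the brighter Nfkbia one, passed without each of the 10 arrays involved. The others each ended without at least 4 of the 10: all 8 without WT 120 min A, KO untreated C or KO 120 min A, all but Cx3cl1 without WT 120 min B, and all but D17H6S56E-5 without KO untreated A or KO 120 min B. Untreated WT arrays also ended the differences of Tnfaip3 (A), Cd14 (C), Cx3cl1 and Cebpd (A or C) and Dusp1 (any), and that of Icam1 ended without any of the 10. Highest adjusted p values were 0.145 for the second Nfkbia probe set, 0.226 for Cd14, 0.12 for D17H6S56E-5, 0.262 for Tnfaip3, 0.31 for Icam1, 0.14 for Cx3cl1, 0.288 for Dusp1 and 0.262 for Cebpd.

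Some risen genes also had sizeable changes in KO. The unnamed 104646_at read 21.2, 24 and 23.8 in untreated KO and 125.3 and 165.8 at 120 min, a change of 1.72 ± 0.24 (adjusted p = 0.0915) that differed from that in WT by -0.11 ± 0.34. Cdkn1a read 67.2, 91.5 and 81.7 and then 194.1 and 177.5 in KO, a change of 0.99 ± 0.26, and Phlda3 read 179.7, 205.1 and 148.7 and then 348.6 and 344.4, a change of 0.87 ± 0.23 (adjusted p = 0.49 for both). Neither overlapped in KO, and the differences from WT did not pass (1.61 ± 0.37 with adjusted p = 0.219, and 0.30 ± 0.32 with adjusted p = 0.924). Mdm2 was at 0.94 and Pcgf2 at 1.37 in KO, against 1.07 and 1.28 in WT. Junb was at 1.21 ± 0.38 in KO by the called probe set and at -0.24 by the other. For the NF-kB and IkB family the median change in KO was 0.019 against 0.69 in WT, and for the p53 targets it was 0.13 against 0.39. Of the fallen genes, Cd22 was at -0.44, H2-Ob at -0.20 and Atp5mpl at -0.20 in KO, and the differences of -1.18, -0.76 and -0.89 did not pass (adjusted p = 0.38, 0.492 and 0.488). The B and T cell lists had medians of 0.049 and 0.17 in KO. Their median WT minus KO differences were -0.65 and -0.68. That of the skeletal muscle markers was 2.21 and that of the salivary gland genes 0.0096. The part of tissue content in the differences between genotypes was not tested.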

How the data were processed

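The authors deposited a table of linear intensities, with 1 value for a probe set on an array; the program that computed them is not named in the sources used here. The trimmed mean was 150 on every array, as read from the values. They were taken as log2(value + 32) and quantile normalized over 14 arrays. Probe sets above their array's 40th percentile on at least 2 arrays were tested (8938 of 12422 non-control). A probe set could therefore enter through the 2 irradiated WT arrays alone. Where the filter required 5 arrays, the called probe sets of Tnfaip3, Bcl3, Tnfaip2, Sprr1a and Cxcl2 were not tested, so these calls depend on the filter. A model of 6 group means was fitted with limma 3.58.1 in R 4.3.3 (lmFit, eBayes), with Benjamini-Hochberg adjusted p under 0.05 as the call, after the code was tested on simulated data. Probe sets with 1 gene in the platform annotation were named (10855 of 12488; 396 had several genes and 1237 none). Named are all called genes, 2 to 4 members per list with large changes, and the 12 largest rises and falls without a call; list genes use their brightest tested probe set. A few further markers were named for their low levels or as tissue markers, after their values were seen. Members and lists were chosen with earlier results of these data known. The labels do not state that replicate letters pair the arrays. None of 31 same-letter pairs correlated above 0.1 in deviations from group means. These values cannot exclude a pairing, since in a group of 2 arrays the deviations of A and B mirror each other. Alternatives covered the offset, normalization, filter, arrays in the fit, replicate letter, weights, intensity trend and each array left out.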

Additional observations from a re-analysis of the deposited data

Results flagged for a closer look

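Responses that differed between WT and KO at 120 min by the test of the difference itself were those of 11 probe sets from 9 genes, given as the WT minus the KO change on the log2 scale. For Cxcl1 the difference was 4.17 and 3.57 by its probe sets, and for Nfkbia it was 2.27 and 1.92. It was 2.17 for Cd14, 2.16 for D17H6S56E-5, 2.04 for Tnfaip3, 1.81 for Icam1, 1.65 for Cx3cl1, 1.64 for Dusp1 and 1.52 for Cebpd. Adjusted p values by limma ran from 0.00182 for Nfkbia to 0.0497 for Icam1. All 11 were chosen among probe sets that rose in WT, whose arrays enter the difference too.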

How the results depend on the processing

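Of 45 called probe sets, 11 passed without each of the 5 arrays (both of Cxcl1 and Nfkbia, and those of Cdkn1a, Tnfaip3, Icam1, Cd14, D17H6S56E-5, Ier3 and Cx3cl1). Of these, 9 also passed in every other setting in which they were tested. Tnfaip3, among the 9, was not tested where the filter required 5 arrays. No called change reversed in any setting run. Leaving out 1 array gave 13 to 37 called probe sets, 13 to 32 rises, 0 to 5 falls and 10 to 32 genes, 3 to 18 differences between WT and KO, and 0 to 1 between 120 and 30 min; a lone array was then taken to vary like the other groups. A fit on only the groups compared gave 20 probe sets (18 rises, 2 falls, 17 genes) and 0 between times. The replicate block, with letters that are not stated to pair the arrays, gave 25 probe sets (24 rises, 1 fall, 22 genes), 5 differences and 4 between times. Falls numbered 2 with an offset of 16, 9 with 64, 2 with a floor, 1 with median centring, 12 with array weights and 9 with an intensity trend, against 4. With an offset of 64 the differences numbered 20 against 12 and the calls between times 21 against 11, and with 16 the latter were 3. The cause of these shifts was not tested beyond the fewer arrays. Only values without a call reversed: over single arrays left out, Gpcpd1 (98941_r_at) ran from -0.31 to 0.12, Rab10 (160149_at) from -0.082 to 0.21, Tubb2a (161614_r_at) from -0.96 to 0.28, Smr2 from -0.051 to 0.42, Junb between times from -0.016 to 0.33 and the WT minus KO difference of 104646_at from -0.28 to 0.053, which was 0.017 with an offset of 64. From 29.3% to 36.5% of intensities per array were under 32, where changes are understated.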
